A study of Mus musculus with 3 samples.

Results

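The genes described here encode enzymes and complex subunits that move nucleosomes or add and remove marks on histones and DNA. They were chosen by symbol from the gene names that the authors' deposited table assigns to regions of Nkx2.2 binding. The symbols start with Smarc, Jmjd, Jarid, Kdm, Prmt, Setd or Arid, or with Chd or Hdac and a digit, and Ezh1, Ezh2, Suz12, Eed, Ep300, Crebbp, Dnmt1 and Dnmt3b were added. Hdac1 and Hdac2 were left out by the same rule. The rule found 73 genes of the 14473 in the table, with 265 of its 37271 regions, and it used no measured value. Each of the 265 regions belongs to 1 of the 73 genes, and 82 of them list at least 1 further gene.

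Nkx2.2 was mapped by chromatin immunoprecipitation and sequencing in cells taken at postnatal day 7 from C57BL/6 mouse cortex and cultured. Oligodendrocyte progenitor cells (OPCs) were isolated with anti-PDGFRA antibody and kept dividing without serum under 10 ng/mL PDGF-AA, 1 ng/mL NT-3 and 10 ng/mL CNTF. Oligodendrocytes (OLs) were made from those progenitors by taking away PDGF-AA and culturing them for 48 h with 40 ng/mL of T3, a thyroid hormone, so they are an early, cultured form of the cell. Each state has 1 library, with 1.5e7 cells listed, and an input library was not analysed here. A region joins the intervals called in either library, and its signal is the deposited average height over it, on a scale that is not stated. Where a pair of signals is given without names, OPC comes first, and more signal in one state means more on the scale as deposited. Coordinates of regions are mm9 as deposited, distances run from the middle of a region to the gene start, and the deposited positions do not separate exons from introns. Without replicates no test between the states was run, and every difference below lies between 2 libraries. Sequencing depth is unknown, and the assay reads binding to DNA, so the labelled cell types could not be checked against the expression of their markers.

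Nkx2.2 is a homeodomain transcription factor of the ventral neural tube and the oligodendrocyte lineage, and it represses genes partly by recruiting Groucho corepressors. The BAF complexes and the CHD proteins use ATP to slide or evict nucleosomes. Histone deacetylases and the JmjC demethylases remove acetyl and methyl groups, while SET-domain enzymes, the Polycomb complex PRC2 and the arginine methyltransferases add methyl groups. Several of them, among them Chd7, Chd8, Hdac3, Ezh2 and Prmt5, are known for roles in the formation of oligodendrocytes.

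Most of these genes carried Nkx2.2 calls in both states. A region called in OPC was present at 50 of the 73 genes (68.5%, exact Clopper-Pearson 95% interval 56.6 to 78.9%), against 57.3% of all genes in the table. A region called in OL was present at 72 (98.6%), against 94.8%, and 49 genes (67.1%) had calls in both libraries, against 52.0%. These intervals cover counting error over genes only. The genes had a median of 3 regions each and the whole table a median of 2, and 22 of the 73 (30.1%) had 4 or more against 16.5% of all genes, and genes with more regions have more chances of a call. Setd7, a lysine methyltransferase gene, was the 1 gene with a call in OPC alone (1.37%, against 5.24% of all genes). The other 23 genes were called in OL alone (31.5%, against 42.7% of all genes).

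Region by region the genes resembled the rest of the table. Of the 265 regions 105 were called in OPC (39.6%, background 37.7% of the 26342 regions with an assigned gene), 233 in OL (87.9%, background 87.0%) and 73 in both (27.5%, background 24.8%). The median average signal was 3.00 in OPC and 5.30 in OL, and over all regions with a gene it was 3.07 and 5.18. A log2 ratio, log2((OL + 1) / (OPC + 1)), of 1 or more was seen at 98 regions (37.0%, background 36.5%), and one of -1 or less at 13 (4.91%, background 5.65%). The median log2 ratio was 0.70 against 0.74. How the 2 libraries were scaled to each other is not given in the sources used here. With all ratios shifted so that the median of all regions was 0, the member median was -0.032. Then 37 of the 265 regions lay at 1 or more and 43 at -1 or less. Over the 26342 regions with an assigned gene these counts were 3211 and 4027. For the members and the whole table alike, which direction holds more regions thus depends on that scaling. At 17 of the 265 regions, in 15 genes, the OPC signal was listed at 0, with OL signals of 3.57 to 10.6. The OL signal was listed at 0 at 2 regions. Of the 26342 regions with an assigned gene, 1462 had OPC listed at 0 and 169 had OL listed at 0.

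**Figure D1:**
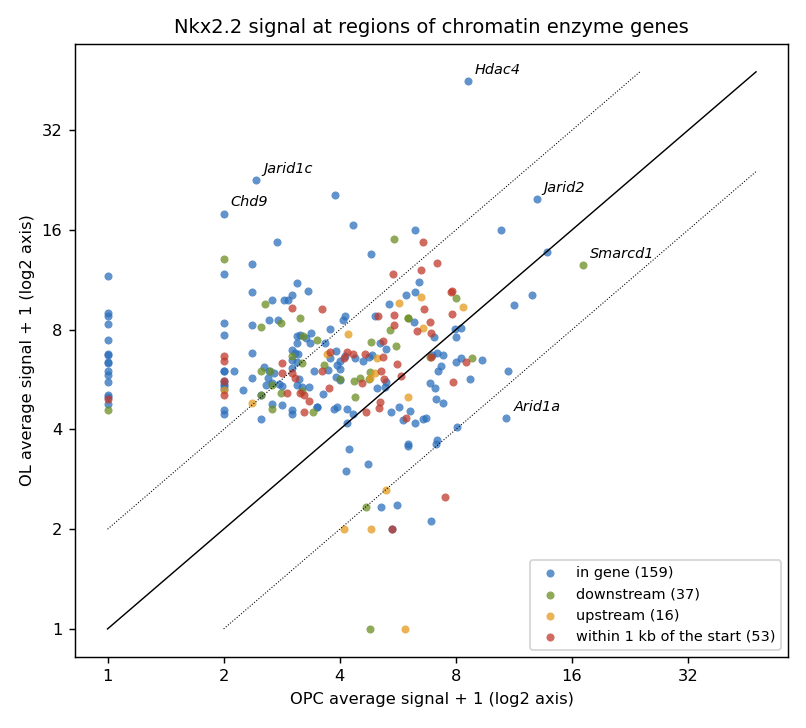
Average signal in OPC (horizontal) and OL (vertical), each plus 1 on a log2 axis, for the 265 regions of the 73 genes, coloured by position relative to the gene. The solid line marks equal signal and the dotted lines a log2 ratio of 1 and -1; 98 regions lie on or above the upper dotted line and 13 on or below the lower, and the Hdac4 region at 43.9 in OL stands above the rest.

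Regions at gene starts were the ones most often called in both libraries. A region lay within 1 kb of the gene's own start at 45 of the 73 genes, with 53 such regions in all (20.0% of 265, interval 15.4 to 25.3%), against 21.7% of all gene-region pairs in the table. Of these 53 regions 47 held a CpG island (88.7%), against 84.5% of all start pairs. Both libraries had a call at 26 of them (49.1%), where the background over all start pairs is 34.5%. OPC calls were present at 29 (background 41.1%) and OL calls at 50 (background 93.3%). Inside the genes 34 of 159 regions (21.4%) were called in both, next to a background of 21.9%, with 55 called in OPC (background 36.6%) and 138 in OL (background 85.3%). The region itself covered the start at 32 of the 53, a share of 60.4% against 76.4% of all start pairs. Of the 53 start regions, 9 lay within 1 kb of another gene's start too (17.0%, against 23.5% of all start pairs), so for them the 2 genes cannot be told apart. Another gene was listed at 26 of the 53 (49.1%, against 54.9%), so their assignment is also not certain.

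The median ratio was lower at start regions than inside the genes, and the whole table showed the same order. The median log2 ratio was 0.55 at the 53 start regions and 0.81 at the 159 regions inside genes, against 0.60 and 0.84 over all pairs of these kinds. Ratios of 1 or more were found at 11 start regions (20.8%, background 19.3%) and 71 regions inside genes (44.7%, background 42.8%). Ratios of -1 or less were found at 2 start regions (3.77%, background 1.45%) and 5 inside genes (3.14%, background 7.08%). With the median of all regions set to 0 these counts were 2 and 32 at 1 or more, and 5 and 30 at -1 or less, and the medians -0.18 and 0.08. The matching counts over all pairs of these kinds were not computed under that shift.

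At the 26 start regions called in both libraries, which belong to 25 genes, signal ran from 3.33 to 7.5 in OPC, with a median of 5.15, and from 3.32 to 13.8 in OL, with a median of 6.61. More OL signal was measured at 20 of them and more OPC signal at 6, with log2 ratios between -0.49 and 1.17. This split turns over with the scaling: centred on the regions called in both libraries it was 15 against 11, and centred on all regions 5 against 21, with Arid1a, Arid4b, Prmt2, Setd1a and Setdb2 still higher in OL. The 24 start regions called in OL alone were lower, with a median OPC signal of 2.19 and a median OL signal of 4.97, in a set chosen for lacking an OPC call. Arid1a, a BAF subunit gene, had the highest OL value of the 26, 13.8, with 5.56 in OPC (chr4:133310023-133310581, 776 bp upstream of its start). Setdb2, an enzyme of the SET-domain family, had 4.50 in OPC against 10.8 in OL at a region centred 134 bp before its start that also lists Cab39l. As deposited, these were the 2 start regions called in both whose log2 ratio reached 1, and none reached -1. Their ratios were 0.92 and 0.86 centred on the regions called in both libraries, and 0.43 and 0.37 centred on all regions. With the latter centring Prmt3 had -1.23, Chd2 -1.20 and Arid3b -1.15. Prmt3, a cytosolic arginine methyltransferase gene, had 6.85 in OPC and 4.58 in OL, the lowest ratio of the set. Chd2 had 4.94 and 3.32 at its start, and Arid3b 7.5 and 5.40.

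**Figure D2:**
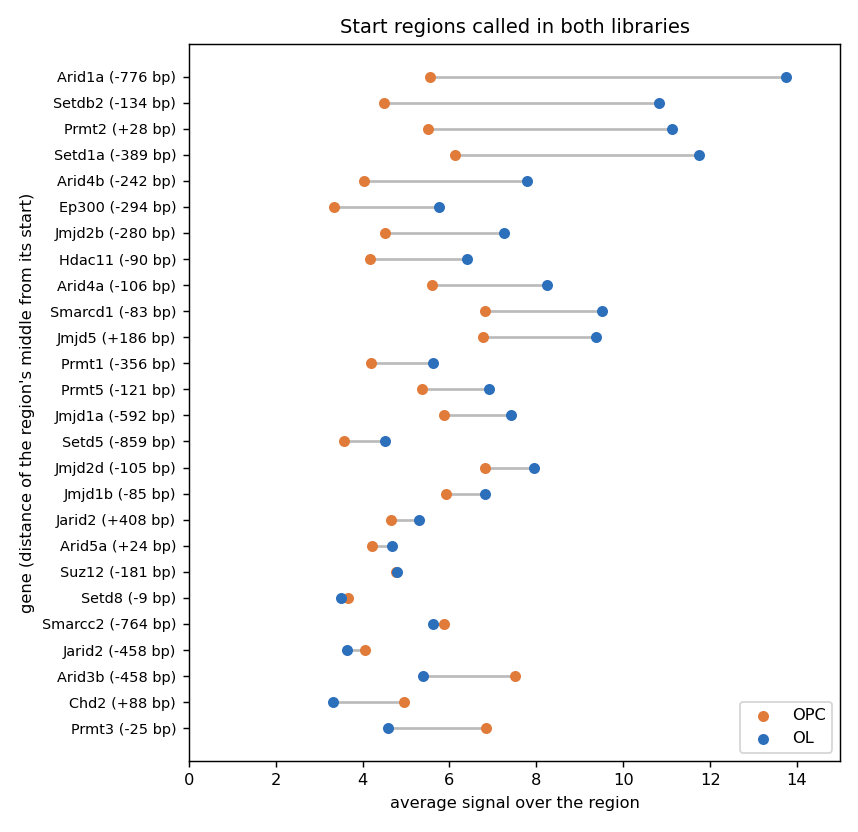
Average signal in OPC (orange) and OL (blue) at the 26 start regions called in both libraries, 1 row per region, with the distance of the region's middle from the gene start in bp and rows ordered by log2 ratio. The OL point lies to the right at 20 regions, farthest for Arid1a at 13.8 against 5.56, and to the left at 6, farthest in ratio for Prmt3. Centred on all regions the split is 5 against 21, and the split over all start pairs called in both libraries was not computed.

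Promoter sequences are shown for some of the genes with a start region called in both libraries, since gene starts were where the libraries shared calls most often. For each enzyme group, the strongest start region was taken that was called in both libraries, reached over the whole window from 250 bases before to 50 bases after the start, and had 1 promoter in RefSeq. Of 12 such regions this left 7, 1 in each of 7 groups. The sequences are RefSeq promoters on GRCm38.p6, a later build than the mm9 of the deposited regions, written 5′ to 3′ on the strand of the gene. The start in RefSeq can differ from the one behind the deposited distances. Capitals mark AAGTG or its reverse complement CACTT, the core that NK2-type homeodomains are known to bind.
Smarcd1, chr15:99702037-99702336, plus strand: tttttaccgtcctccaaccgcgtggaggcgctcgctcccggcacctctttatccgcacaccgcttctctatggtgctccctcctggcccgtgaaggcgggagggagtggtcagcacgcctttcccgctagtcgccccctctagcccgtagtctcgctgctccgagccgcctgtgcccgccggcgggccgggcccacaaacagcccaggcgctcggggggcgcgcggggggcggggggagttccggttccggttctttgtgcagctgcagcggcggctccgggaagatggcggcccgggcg
Arid4b, chr13:14063534-14063833, plus strand: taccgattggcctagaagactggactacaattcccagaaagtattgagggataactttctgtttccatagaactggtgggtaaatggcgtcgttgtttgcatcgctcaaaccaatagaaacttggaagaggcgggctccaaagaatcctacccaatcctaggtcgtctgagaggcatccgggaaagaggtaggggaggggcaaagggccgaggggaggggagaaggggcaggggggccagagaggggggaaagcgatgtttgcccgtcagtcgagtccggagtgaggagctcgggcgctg
Hdac11, chr6:91156565-91156864, plus strand: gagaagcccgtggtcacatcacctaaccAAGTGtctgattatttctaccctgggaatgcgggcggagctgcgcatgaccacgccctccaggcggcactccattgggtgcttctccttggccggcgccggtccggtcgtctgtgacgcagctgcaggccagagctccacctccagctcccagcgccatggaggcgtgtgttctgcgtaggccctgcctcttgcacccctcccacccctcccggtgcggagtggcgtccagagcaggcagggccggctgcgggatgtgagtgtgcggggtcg
Jmjd5, chr7:125444370-125444669, plus strand: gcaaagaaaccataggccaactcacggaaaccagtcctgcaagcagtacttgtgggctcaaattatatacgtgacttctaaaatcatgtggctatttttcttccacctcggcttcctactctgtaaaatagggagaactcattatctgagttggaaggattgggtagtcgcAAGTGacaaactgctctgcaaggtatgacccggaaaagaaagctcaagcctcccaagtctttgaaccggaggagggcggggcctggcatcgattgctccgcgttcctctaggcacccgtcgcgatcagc
Suz12, chr11:79992856-79993155, plus strand: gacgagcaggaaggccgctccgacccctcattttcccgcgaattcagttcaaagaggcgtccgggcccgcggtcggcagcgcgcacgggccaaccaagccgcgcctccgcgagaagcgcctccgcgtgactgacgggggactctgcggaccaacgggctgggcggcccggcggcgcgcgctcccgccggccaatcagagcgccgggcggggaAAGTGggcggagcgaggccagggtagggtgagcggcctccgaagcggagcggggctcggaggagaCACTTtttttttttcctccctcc
Prmt2, chr10:76237816-76238115, minus strand: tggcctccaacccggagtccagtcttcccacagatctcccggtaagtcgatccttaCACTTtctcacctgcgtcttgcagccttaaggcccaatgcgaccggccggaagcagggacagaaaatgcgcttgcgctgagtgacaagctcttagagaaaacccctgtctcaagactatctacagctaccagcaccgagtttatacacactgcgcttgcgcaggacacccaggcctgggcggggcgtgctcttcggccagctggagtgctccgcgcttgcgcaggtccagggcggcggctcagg
Ep300, chr15:81585964-81586263, plus strand: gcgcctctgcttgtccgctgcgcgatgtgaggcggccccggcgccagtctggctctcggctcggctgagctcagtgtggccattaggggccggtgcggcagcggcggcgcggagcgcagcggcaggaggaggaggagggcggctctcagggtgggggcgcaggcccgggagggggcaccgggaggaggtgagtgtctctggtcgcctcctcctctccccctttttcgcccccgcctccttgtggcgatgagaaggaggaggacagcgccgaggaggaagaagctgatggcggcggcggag
These windows are rich in CpG and mostly hold few copies of the core. Suz12 holds 41 CpG in its 300 bases and 2 cores, 1 in each orientation. Hdac11, Jmjd5 and Prmt2 hold 1 core each, and Smarcd1, Arid4b and Ep300 hold none in this window. The CpG count runs from 13 in Jmjd5 to 41 in Suz12. Over the 30 member genes with a start region and 1 RefSeq promoter, the median was 23 CpG and 61.3% GC, against 7 CpG and 52.7% GC over all 32851 promoters of the table. The core AAGTG, searched on both strands, was present in 15 of the 30 (50%) and in 46.4% of all promoters. The longer form TCAAGTG was present in 1 of 30 and in 3.06% of all, and it contains the core. CCAAT was present in 18 of 30 (60.0%) and 37.4% of all, and GCCAT, the core of the YY1 site, in 16 of 30 (53.3%) and 40.5% of all. A match is a string of letters and not a shown site, and GC-rich promoters differ from the whole set in composition. The 30 were also chosen for a start region and 1 RefSeq promoter, and the whole set was not, so the 2 sets are not alike. Among all start pairs 84.5% held a CpG island, near the 88.7% of the member start regions.

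The counts of the enzyme groups below are to be read against the shares over all regions with a gene, 37.7% called in OPC, 87.0% in OL, 24.8% in both, 36.5% at a log2 ratio of 1 or more and 5.65% at -1 or less. The BAF complex genes held 54 regions at 11 genes, 48 called in OL (88.9%) and 20 in OPC (37.0%), both near those shares, with 9 genes called in both states. Their median log2 ratio was 0.80, with 23 regions at 1 or more (42.6%) and 4 at -1 or less (7.41%). Arid1b, which encodes the DNA-binding subunit used in place of Arid1a in part of the BAF complexes, had the most regions of all 73 genes, 21. Of these 18 were called in OL, 5 in OPC and 2 in both. Its OPC signals ran from 0 to 6.39 with a median of 2.92, and its OL signals from 1.00 to 19.5 with a median of 5.70. The strongest, chr17:5008142-5008819 and 13406 bp into the gene, had 2.88 in OPC and 19.5 in OL. Another, 215512 bp into the gene, had 3.33 and 15.5, and a region 1710 bp beyond it had 6.39 and 3.82, so the balance of the 2 libraries turned over a short distance. The same was seen 243427 and 243963 bp into the gene, 535 bp apart, with 1.70 in OPC against 4.92 in OL at the first and 5.90 and 1.11 at the second. Near the start of Arid1b, a region 3904 bp upstream had 3.83 in OPC and 1.00 in OL, while those 973 bp and 44 bp upstream had 1.83 and 4.94, and 1.00 and 5.46.

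Arid1a, the paralogue of Arid1b, had 4 regions and values in both directions. Beside the start region above, one 3600 bp upstream had 5.48 in OPC and 9.02 in OL and merged 3 called intervals. Inside the gene, 23837 bp from its start, a region had 9.81 in OPC and 3.33 in OL (chr4:133285154-133286225), a log2 ratio of -1.32 and the lowest of the members' stronger regions, those at or above the median mean signal of all regions. The remaining region had 1.00 and 4.58. Arid2, the DNA-binding subunit of the PBAF form, had only weak regions, with OPC signals of 2.50 and 2.00 and OL signals of 3.67 and 3.57.

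The core BAF subunits differed in how their regions lay. Smarca2, which encodes the ATPase Brm, had 5 regions inside the gene, all called in OL and 1 in OPC, with OL signals of 3.96 to 9.21. Smarcc1, a scaffold subunit, had 11.6 in OPC against 9.21 in OL at its strongest region, 74052 bp into the gene (chr9:110107870-110109291), and 2.60 and 8.22 at its start. Its partner Smarcc2 had 5.88 and 5.62 at a region 764 bp upstream. Smarcd1, an accessory subunit, carried the highest OPC value of all 73 genes, 16.1, with 11.5 in OL. That region, chr15:99545262-99546887, lies downstream of Smarcd1, 13356 bp from its start, and also lists Gpd1 and 2310016M24Rik, so its gene is not certain. At the start of Smarcd1, a region shared with Accn2, the values were 6.83 and 9.50.

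Smarcd3, the accessory subunit of heart and muscle BAF complexes, had 3 regions around its start with different balances. The region 660 bp downstream of the start had 4.47 in OPC and 1.00 in OL, the one at 69 bp 2.33 and 3.89, and the one 749 bp upstream 1.00 and 4.58. The first was called in OPC alone and the others in OL alone. Smarcb1, the small core subunit lost in rhabdoid tumours, had 1.83 in OPC and 5.36 in OL on its start and 1.00 and 4.25 just upstream, both called in OL alone and both shared with Mmp11. Smarce1 had 3.81 and 6.36 at a single region downstream of the gene. Smarcd2 had 7.33 and 8.36 at a region 5349 bp upstream that also lists Psmc5 and Tcam1. No region was assigned to Smarca4, the gene of the alternative ATPase Brg1, under that symbol or a RefSeq synonym of it.

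The remaining Smarc genes, Smarca5 and Smarcal1, were called in OL alone, as were 42.7% of all genes. Smarca5, the ISWI ATPase, had 1 region with 4.08 in OL, listed at 0 in OPC and shared with Frem3. Smarcal1, an annealing helicase of stalled replication forks, had 3 regions with OPC signals of 4.54, 2.67 and 1.76 and OL signals of 7.88, 6.30 and 7.57. All 3 Smarcal1 regions had more OL signal, the first of them on the start.

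Among CHD remodellers 8 genes held 47 regions, with 42 called in OL (89.4%), 14 in OPC (29.8%) and 9 in both (19.1%), and a median log2 ratio of 0.75. Chd2 stood on the OL side along most of its length. Of its 11 regions all were called in OL and 1, the one on its start, in OPC, and 8 had a log2 ratio of 1 or more. Its highest, with 4.53 in OPC and 14.0 in OL (chr7:80570881-80571533), lies downstream of Chd2 and also lists Rgma, as do 2 more. Within the gene the highest had 1.93 and 8.86, 7864 bp from the start, and 1.67 and 8.85 at 34116 bp.

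Chd9 had as many regions, 11, but a divided pattern. All of them were inside the gene, 7 called in OL, 5 in OPC and 1 in both. Between 33530 and 48718 bp from the start, 4 consecutive regions were called in OPC alone, with OPC signals of 4.70, 6.11, 4.12 and 4.83 and OL signals of 3.67, 2.62, 1.33 and 3.28. Farther in, a region at chr8:93442978-93443764, 90635 bp from the start, had 1.00 in OPC and 16.9 in OL, and one at 172381 bp had 1.00 and 10.8. A region between those, at 126273 bp, was even, with 6.95 and 7.05. The 4 OPC-alone calls of Chd9 thus lay together, and its largest OL values lay farther from the start.

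Chd7, the remodeller mutated in CHARGE syndrome, had 7 regions inside the gene, 6 called in OL and 3 in OPC. OPC signals were 6.00, 1.83, 3.38, 0, 5.0, 7.70 and 1.00 from the start onward, and OL signals 6.61, 3.75, 5.58, 5.78, 2.56, 4.67 and 7.4. The strongest in OPC, 108617 bp from the start, had less OL signal. Chd8, which binds the Chd7 protein, had 3 regions, all called in OL alone. Their OPC signals were 3.38, 2.00 and 4.68 and their OL signals 4.0, 3.44 and 8.65. Chd6 had 13.7 in OL against 1.75 in OPC at a region 104530 bp from its start, and 5.56 in OPC and 3.29 in OL 90985 bp from it. All 7 Chd6 regions were called in OL and 3 of them in OPC.

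The NuRD remodellers Chd3 and Chd4 differed in where their regions lay. Chd3 had 9.47 in OPC against 15.0 in OL at a region 4316 bp into the gene (chr11:69178248-69178977), among the 10 highest member values in each library. Another, 2841 bp into the gene, had 3.12 and 7.77, and both were called in both libraries. Chd4 had 3 regions outside the gene, called in OL alone, with OPC signals of 3.19, 1.5 and 2.2 and OL signals of 6.75, 4.07 and 4.21. All 3 also list neighbours, Gpr92 or Nol1. Chd1l, a remodeller recruited by poly(ADP-ribose), had 4.09 and 6.27 at its single region. No region was assigned to Chd1 or Chd5.

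**Figure D3:**
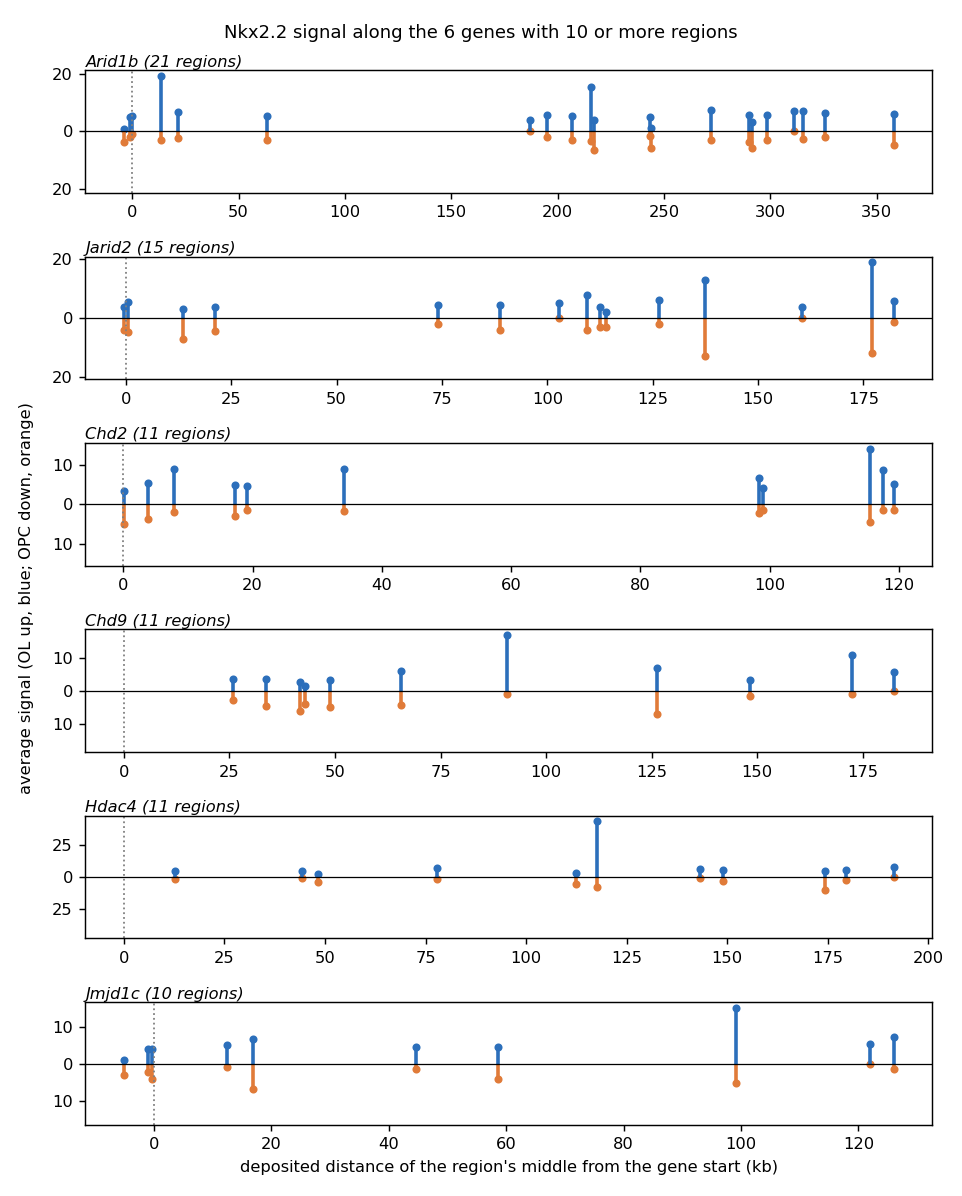
Average signal of each region along the 6 genes with 10 or more regions, with OL upward in blue and OPC downward in orange, against the deposited distance of the region's middle from the gene start in kb (dotted line at 0); vertical scales differ between genes. Arid1b and Chd2 have mostly higher OL bars, Chd9 has 4 neighbouring regions with more OPC signal before 50 kb, and 1 Hdac4 region reaches 43.9 in OL.

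The other ARID-domain genes, DNA-binding factors outside BAF, had the lowest median ratio of the 11 groups. Their 6 genes were all called in both states, against 52.0% of all genes. OL calls were present at 15 of 20 regions (75%, background 87.0%) and OPC calls at 13 (65%, background 37.7%), a difference that was not tested. Over these the median log2 ratio was 0.19, with 4 regions at 1 or more (20%) and 3 at -1 or less (15%). Arid5b, a partner of the demethylase Phf2, had 7 regions, with OPC signals of 0 to 10.3 and OL signals of 0 to 8.50. Its strongest, chr10:67699150-67699765, had 10.3 in OPC and 8.50 in OL. A region 1503 bp upstream had 4.91 in OPC and was listed at 0 in OL, and one 165492 bp into the gene had 5.39 in OL and was listed at 0 in OPC. Arid5a, an RNA-binding relative, had 7.27 and 7.10 at its strongest region and 4.22 and 4.68 at its start.

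Arid3a and Arid3b, a pair of related DNA-binding factors, each had calls in both libraries. Arid3a had 4.62 in OPC against 1.36 in OL at a region 7366 bp into the gene. Its 2 start regions had 2.06 and 2.15 in OPC and 4.74 and 4.15 in OL. Its highest OPC value, 7.83, was at a region downstream that also lists Wdr18, with 5.58 in OL. Arid4a and Arid4b, subunits of the Sin3 deacetylase complex, had 1 region each on the start, with OPC signals of 5.61 and 4.04 and OL signals of 8.25 and 7.78. Both are shared with a neighbour, 3110056K07Rik for Arid4a and Ggps1 with LOC100040243 for Arid4b.

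Histone deacetylase genes outside Hdac1 and Hdac2 held 27 regions at 8 genes, 21 called in OL (77.8%), 11 in OPC (40.7%) and 5 in both (18.5%). The median log2 ratio was 0.54, with 11 regions at 1 or more (40.7%) and 2 at -1 or less (7.41%). Hdac4, a class IIa deacetylase that shuttles between nucleus and cytoplasm, carried the highest OL signal of the 73 genes. Its region chr1:93926907-93927680, 117677 bp into the gene, had 7.59 in OPC and 43.9 in OL, and was 22nd of the 37271 regions in OL. The highest signal within it was 20 in OPC and 159 in OL. The other ten Hdac4 regions had at most 7.79 in OL. At 174315 bp from the start another region had 9.94 in OPC and 5.0 in OL, and those at 112479 and 48128 bp, called in OPC alone, had 5.09 and 3.54, and 3.73 and 2.14. So 8 of the 11 Hdac4 regions had more OL signal and 3 had more OPC signal.

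The other class IIa genes had few regions. Hdac5 had 5.25 in OPC and 3.18 in OL at 11239 bp into the gene, and 4.85 in OL with OPC listed at 0 at 21139 bp. Hdac7a, now named Hdac7, had 6.30 and 5.21 at its region inside the gene. Hdac9 had its OPC call on the start, 145 bp upstream, with 6.50 in OPC and 1.5 in OL and no CpG island (chr12:35213659-35214110). A region 96875 bp into the gene had 1.00 and 3.46. The Hdac9 start region had the lowest log2 ratio of the 53 start regions, -1.58, and it is one of the 3 start regions called in OPC alone.

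Hdac3, the catalytic subunit of the NCoR and SMRT corepressors, had 1 region, with 5.0 in OPC and 7.70 in OL, downstream of the gene and shared with Diap1. Hdac8, the X-linked deacetylase of cohesin, had OPC signals of 6.2, 3.33 and 5.0 and OL signals of 5.0, 3.46 and 2.62, so 2 of its 3 regions had more OPC signal. Hdac11, the class IV enzyme found in oligodendrocytes, had 4.17 in OPC against 6.4 in OL at its start, with a CpG island. A region 9431 bp upstream of Hdac11 had 4.27 and 1.62, and one downstream 1.67 and 4.46. Hdac10, a polyamine deacetylase, had 2.00 and 8.33 on its start and 5.85 and 5.6 downstream, both called in OL alone and shared with Mapk12. No region was assigned to Hdac6.

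**Figure D4:**
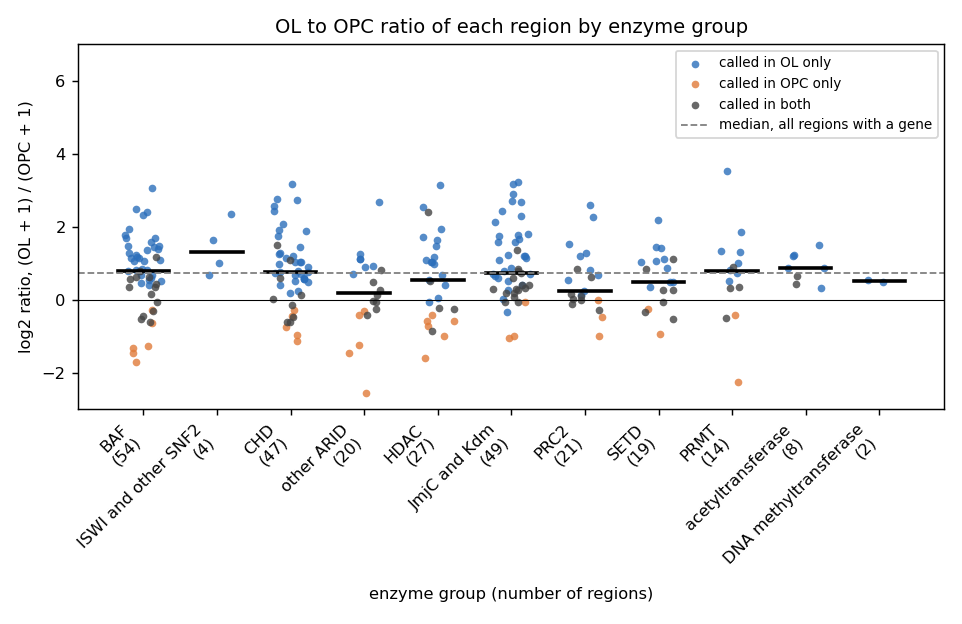
Log2 ratio of OL to OPC average signal, each plus 1, for each of the 265 regions by enzyme group, with the number of regions in brackets; colours give the library of the call, black bars the group median and the dashed line the median of 0.74 over all regions with a gene. The bars of the other ARID genes (0.19) and PRC2 (0.23) lie lowest and that of BAF (0.80) just above the dashed line.

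The JmjC demethylases and their relatives held 49 regions at 13 genes, with 46 called in OL (93.9%), 19 in OPC (38.8%) and 16 in both (32.7%). Their median log2 ratio was 0.74, the same as over all regions with a gene, with 20 regions at 1 or more (40.8%) and 2 at -1 or less (4.08%). Jarid1c, now named Kdm5c, an X-linked demethylase linked to intellectual disability, had the largest OL excess in the group. Its region chrX:148680167-148680766, 12651 bp into the gene, had 1.43 in OPC against 21.6 in OL, a log2 ratio of 3.22, while the region on its start, shared with Iqsec2, had 2.75 and 4.32. Its paralogues had 1 region each, Jarid1a (Kdm5a) with 3.00 and 5.07 and Jarid1b (Kdm5b) with 4.0 and 5.56.

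The Jmjd1 genes, now Kdm3a, Kdm3b and Jmjd1c, each had a start region with an OPC call. Jmjd1a (Kdm3a) had 5.88 in OPC and 7.42 in OL there and Jmjd1b (Kdm3b) 5.91 and 6.81, both called in both. Jmjd1c had 10 regions, 8 called in OL, 5 in OPC and 3 in both. A pair of its regions lay by the start, one with 2.23 and 4.07 called in OL and the other with 4.08 and 3.83 called in OPC. The strongest Jmjd1c region, 99224 bp into the gene, had 5.29 and 15.0 (chr10:66688707-66689753). One 16853 bp into the gene merged 3 intervals and was even, with 7.0 and 6.6. All 6 Jmjd1b regions had more OL signal, with OL signals of 5.0 to 9.41.

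Of the Jmjd2 genes, now Kdm4a to Kdm4d, Jmjd2b had most regions. Its 9 regions, with OL calls at 8 and OPC calls at 2, had OPC signals of 1.36 to 4.52 and OL signals of 1.33 to 11.6. The start region, called in both libraries and shared with Uhrf1, had 4.52 and 7.26, and regions 5159 and 15547 bp into the gene had 1.36 in OPC each with 9.36 and 11.6 in OL. Jmjd2a had 4.36 and 8.54 at a region 31969 bp into the gene, and 8.00 in OL with OPC listed at 0 at 37654 bp, the latter shared with St3gal3. Jmjd2d had 6.82 and 7.95 at its start. Jmjd2c had a single region with 2.30 and 9.48.

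Jmjd3, now Kdm6b, which removes the Polycomb methyl mark, had 7 regions spread from upstream of its start to downstream of the gene, all called in OL and 4 in OPC. OPC signals were at most 7.0 and OL signals at most 9.2, so no single region stood out. The region with 7.0 in OPC had 5.385 in OL and was called in OL alone, so calls need not follow the average signal. The widest, 1859 bp long and 4607 bp upstream of the start, merged 4 intervals and had 5.56 in OPC and 7.10 in OL. The region nearest the start had 3.93 in OL and was listed at 0 in OPC. Jmjd5, now Kdm8, had 6.77 and 9.37 at its start and 1.00 and 12.1 at a region downstream that also lists Nsmce1. Jmjd6, an arginine demethylase and lysyl hydroxylase, had 1.00 and 5.67, at a region shared with Sfrs2.

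Most of the PRC2 regions lay in Jarid2. The 5 genes had 21 regions, 18 called in OL (85.7%), 11 in OPC (52.4%) and 8 in both (38.1%), and a median log2 ratio of 0.23, with 5 regions at 1 or more (23.8%) and 0 at -1 or less. Jarid2, which guides PRC2 to its targets and lacks demethylase activity, had 15 of them, 13 called in OL, 9 in OPC and 7 in both. Its OPC signals ran from 0 to 12.8, with a median of 3.94, and its OL signals from 2.00 to 18.8, with a median of 4.46. A region at chr13:44963131-44964272, 137429 bp into the gene, had 12.8 in both libraries. Another at chr13:45002945-45003836, 177118 bp into the gene, had 11.96 in OPC and 18.8 in OL. Among the 73 genes, the shared Smarcd1 region alone had a higher OPC value than these. The 2 regions on either side of the Jarid2 start, both with a CpG island, had 4.06 and 4.64 in OPC and 3.63 and 5.30 in OL. One 13458 bp into the gene, called in OPC alone, had 7.07 and 3.08.

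The core PRC2 subunits had 1 or 2 regions each, with at most 5.0 in OPC and 7.65 in OL. Suz12 had 4.77 in OPC against 4.79 in OL at its start, the closest to equal of the start regions called in both, on the scale as deposited. Ezh2, the main methyltransferase of the complex, had 3.11 and 5.59 at its start and 1.54 and 5.19 inside the gene, both called in OL alone. Ezh1, its paralogue, had 3.17 and 3.18 inside the gene, called in OPC, and 5.0 and 7.65 at a region downstream that also lists Cntnap1, Ccr10 and Plekhh3. Eed had 4.12 and 5.0 at a region 978 bp from its start.

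SET-domain methyltransferase genes held 19 regions at 9 genes, 17 called in OL (89.5%), 9 in OPC (47.4%) and 7 in both (36.8%), with a median log2 ratio of 0.50. Setd1a, which methylates histones at active promoters, had 6.13 in OPC against 11.7 in OL at a region centred 389 bp before its start that also lists Fbxl19 and Tmem142c. Setd5 was called in both libraries at all 3 of its regions. Its start region had 3.56 and 4.52, and those inside the gene had 8.37 and 5.50, and 7.24 and 5.58, with more OPC signal. Setd7 had 6.17 in OPC against 2.73 in OL at its only region, 28658 bp into the gene (chr3:51335882-51336292). Setd8 (Kmt5a) had 3.67 and 3.50 at its start.

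Setd3, Setd1b, Setd2 and Setdb1 had OL calls at all of their regions, with OL signals of at most 5.78. Setd3, an actin histidine methyltransferase, had 3 regions inside the gene with OPC signals of 2.00, 3.00 and 1.67 and OL signals of 5.12, 4.65 and 4.53, all called in OL alone. Setd1b had 3.92 and 4.92 at a region 2721 bp upstream, called in both libraries, and 2.11 and 5.78 inside the gene. Setd2 and Setdb1 had 1 region each, downstream of the gene and shared with neighbours, with OPC signals of 1.82 and 3.36 and OL signals of 4.17 and 4.60.

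The arginine methyltransferase genes held 14 regions at 7 genes, 7 of them at a start, where 21.7% of all pairs lie. A start region was present at 6 of the 7 genes, against 48.9% of all genes, and 4 of the 7 start regions were called in both libraries, against 34.5% of all start pairs. Over the 14 regions the median log2 ratio was 0.78. Prmt5, which makes symmetric dimethylarginine, had a single region on its start with 5.36 in OPC and 6.90 in OL. Prmt1, the main arginine methyltransferase of the cell, had 4.18 and 5.62 just upstream of its start, 1.00 and 4.08 just inside it, and a downstream region shared with Cpt1c with 3.79 in OPC, listed at 0 in OL. Prmt2, a coactivator of nuclear receptors, had 5.50 and 11.1 at its start. Prmt6 and Prmt7 had OL calls alone at their starts, with OPC signals of 1.92 and 2.61 and OL signals of 4.15 and 5.0.

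Prmt8, the membrane-bound brain form, differed from the rest of its family, with no start region. Inside the gene, 19704 bp from its start, it had 10.6 in OL at chr6:127698806-127699281 and was listed at 0 in OPC. A region downstream of it had 2.2 and 5.36. Prmt3 had 2.10 in OPC against 10.1 in OL at a region 64482 bp from its start, opposite to the balance at its start, and 6.08 and 4.33 at one 8804 bp into the gene.

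The acetyltransferase pair, which puts acetyl groups on histones at enhancers, was called in both states. Crebbp had 7 regions, all called in OL and all with more OL signal, but 1 called in OPC, with 5.23 in OPC and 7.46 in OL at 52587 bp into the gene. Its other six had OPC signals of 1.00 to 3.79 and OL signals of 3.57 to 5.84. Ep300 had 1 region, 1804 bp long and over its start, with 3.33 and 5.75. The DNA methyltransferase genes had 1 OL call each, Dnmt1 with 3.65 and 5.76 at its start and Dnmt3b with 3.75 and 5.62 inside the gene.

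Some genes held regions with opposite balance. At 10 of the 73 genes (13.7%, background 5.55% of all genes, most of which have fewer regions) one region had a log2 ratio of 1 or more and another one of -1 or less. These genes were Arid1a, Arid1b, Smarcd3, Chd9, Arid5b, Hdac9, Hdac11, Jmjd1c, Jmjd2b and Prmt1. With a pseudocount of 2 the count was 5, and Arid1b and Arid5b were the 2 genes in the list under each of the 7 settings tried. With the highest signal it was 15, centred on all regions 14 and with a pseudocount of 0.5 12. Of 192 pairs of neighbouring regions in the same gene, 63 had log2 ratios of opposite sign (32.8%, background 29.6% over all genes), near-zero ratios included. One ratio at 1 or more and the other at -1 or less was found in 7 of the 192 (3.65%, background 3.60%). Among the 57 pairs whose middles lay within 5 kb, 18 had opposite signs (31.6%, background 29.1%) and 2 passed 1 and -1 (3.51%, background 2.78%), both at Arid1b. Neighbouring regions thus differed in direction about as often as in the whole table.

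Of the 92 protein-coding RefSeq symbols that fit the choice by name, 13 had no region in the table under that symbol or a synonym. They are Arid3c, Chd1, Chd5, Hdac6, Jmjd4, Jmjd7, Kdm5d, Prmt9, Setd4, Setd6, Smarca1, Smarca4 and Smarcad1. A further 7 appear under names outside the choice, among them Kdm1a as Aof2 and Kdm6a as Utx, and were not counted.

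The rest of the chromatin machinery, from a list of 88 genes fixed by symbol, had regions at 68. OPC calls were present at 36 of the 68 (52.9%) and OL calls at 67 (98.5%), against 57.3% and 94.8% of all genes. They had 174 regions with a median log2 ratio of 0.75. Some of these are member regions too, since Uhrf1 of this list shares regions with Jmjd2b. Ratios of 1 or more were found at 57 of these regions (32.8%, background 36.5%) and of -1 or less at 7 (4.02%, background 5.65%). The highest OL signal among them was at Htatip, the gene of the Tip60 acetyltransferase, with 6.36 in OPC against 32.9 in OL at a region downstream of it that also lists Rnaseh2c. Myst4, an acetyltransferase gene, had 1.32 and 24.4 at 154918 bp into the gene, and Actl6a, a BAF subunit of progenitor cells, 5.31 and 20.9 at 10235 bp upstream. Gatad2a, a NuRD subunit, had 11.8 and 19.2 at its start, a region higher in both libraries than any start region of the 73 genes. Mta2, also of NuRD, had 8.03 and 14.2 downstream, at a region shared with Tut1.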

How the data were processed

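The analysis starts from 1 table of merged regions. Per the file headers, the authors called intervals in each ChIP library, joined them into regions and marked the library of each call. The deposited signal columns give each region's average and highest signal. The submitters' processing notes name BWA, MACS 1.4.2 and mm9, with no role or order. For thresholds, use of the input and scaling, nothing is given in the sources used here. Other deposited columns hold counts of genes and CpG islands.

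Ratios were log2((OL + 1) / (OPC + 1)) of average signal, with a pseudocount of 1, which understates weak regions, and no filter. A start region had its middle within 1 kb of the deposited start. Members and lists were chosen with earlier results of these data known. All member genes could be named. Full values were for the 10 highest regions per library, the 10 largest and smallest ratios, genes with 4 or more regions and start regions called in both. All 73 symbols matched RefSeq (GRCm38.p6), 13 as older names. Calculations used Python 3.11.15, pandas 2.3.3 and scipy 1.17.1, and the ratio and the member rule were tested on simulated data.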

Additional observations from a re-analysis of the deposited data

How the results depend on the processing

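With 1 library per state, differences have no replicate check, depth is unknown and the strength of weak regions cannot be judged. No paired analysis was possible because each state has 1 library. Counting only calls at or above the library's median called signal left 55 member regions in OPC, 121 in OL and 35 in both, and 30 genes called in both. With regions of 1 assigned gene alone, 48 regions were called in both and 27 lay at a start. The median log2 ratio of 0.70 was 0.58 with a pseudocount of 2, 1.00 with the highest signal, 0.46 centred on shared regions, 0.54 over regions at or above the median mean signal, and -0.032 centred on all regions. Centring on all regions gave 37 regions at 1 or more and 43 at -1 or less, against 3211 and 4027 of the 26342 regions with an assigned gene. The filter on mean signal gave 43 and 1. Counts at -1 or less were 7 with a pseudocount of 2 and 7 over start and gene body regions alone. Genes with regions in both directions, with alternatives chosen after seeing the data, numbered 10 as reported, 5 with a pseudocount of 2, 7 with regions of 1 gene, 10 centred on shared regions, 12 with a pseudocount of 0.5, 14 centred on all regions and 15 with the highest signal. The fewer regions follow from the filters themselves and the centrings shift every ratio alike. Of the 57 named ratios, 20 crossed a log2 size of 1 when centred on all regions and 6 when centred on shared regions, and none that was past 1 changed sign.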
